A study of Mus musculus with 141 samples.

Results

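The genes of fatty acid and lipid synthesis described here are Scd1, Scd2, Fasn, Acly, Acaca, Elovl1, Elovl6, Srebf1, Lpcat1 and Apoe, and they were chosen by name from the read count matrix. Of these 10 genes, 9 have a row among the 17136 genes of the matrix, and Elovl6 was not analysed here. Every cell came from the lungs of 1 male mouse aged 4 months, of genotype ACID;R26tdTomato (strain 129SV by the labels). The mouse was heterozygous for Aqp5-Cre-IRES-DsRed, in which Cre is knocked into exon 1 of Aqp5, and for a ROSA26-stop-flox-tdTomato reporter, so tdTomato marks any cell in which Aqp5 had been active at some time, airway cells included. The sort took cells without CD31 and CD45 and with E-cadherin and tdTomato (CD31- CD45- E-cadherin+ tdTomato+), which were captured on a Fluidigm C1 chip, in which each cell is lysed and barcoded at its own site. The labels call all of them alveolar type 1 cells.

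The cells were divided here by their reads. A cell was kept when less than 0.15 of its reads lay on mitochondrial genes, which left 92 cells and removed 49. A kept cell was placed in the type 2 class with at least 8000 CPM (read counts brought to a common library size) of Sftpc, the surfactant protein C gene of alveolar type 2 (AT2) cells, and in the type 1 class with at least 5000 CPM of Ager, a gene of alveolar type 1 (AT1) cells. This gave 11 type 2 cells, 45 type 1 cells and 36 remaining cells, and no kept cell passed both limits. The classes rest on Ager and Sftpc and not on the lipid genes, but on the same cells and libraries. There is 1 mouse, so a class is 1 sample without a replicate: no difference between classes could be tested, and each is given as a description with the 95% interval of the counting error.

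Kept cells held 142003 to 2170760 reads (median 553963). The median was 413806 reads in type 2 cells, 468718 in type 1 cells and 693389 in the remaining cells. Defining markers were checked cell by cell. At least 50% of a list of 15 further AT2 markers exceeded 100 CPM in 10 of 11 type 2 cells, and the same held for a list of 16 further AT1 markers in 45 of 45 type 1 cells. Of the 36 remaining cells, 12 passed this rule for a ciliated list, 7 for a club list, 6 for a basal list, 2 for a fibroblast list, 1 for both the club and the type 2 lists, and 8 for none. The type 2 cell in column 16 and row 6 passed the club list as well, with 5 of its 10 markers above 100 CPM and 5033 CPM of Scgb1a1, and 4 of 45 type 1 cells passed the macrophage list, of which only 3 genes have a row. Ptprc, which encodes CD45, had no read in any kept cell, and 6 of 7 endothelial markers had none in the type 2 class. The type 2 cell in chip column 20 and row 17 stood apart by its Sftpc. It held 25437 CPM of Sftpc where the other 10 held 114388 to 243977, it passed 100 CPM for 6 of 15 AT2 markers, and no lipid gene reached 100 CPM in it. Values without this cell are given where they matter. Just outside the Sftpc limit lay a remaining cell with 7774 CPM of Sftpc, and the nearest values on either side of the Ager limit were 9335 and 1402 CPM.

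AT2 cells make pulmonary surfactant, a film of phospholipid and protein that lowers surface tension in the alveolus. Its main lipid is phosphatidylcholine with saturated chains, dipalmitoyl phosphatidylcholine above all. Palmitate for it comes from the blood and from synthesis in the cell. ATP citrate lyase (Acly) splits citrate to acetyl-CoA, acetyl-CoA carboxylase 1 (Acaca) turns acetyl-CoA into malonyl-CoA, and fatty acid synthase (Fasn) joins these units to palmitate. ELOVL enzymes lengthen acyl chains, with ELOVL1 acting on very long chains, and the stearoyl-CoA desaturases Scd1 and Scd2 put a double bond into saturated chains. LPCAT1 re-acylates lysophosphatidylcholine and is known for making dipalmitoyl phosphatidylcholine in AT2 cells. SREBP-1, the product of Srebf1, is a transcription factor that switches on most of these genes. Apolipoprotein E (Apoe) is a secreted lipid carrier and not an enzyme of synthesis.

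Promoter sequence is shown for 2 examples, Fasn and Lpcat1. Of the genes with more CPM in the type 2 class than in both other classes and an entry in the promoter table used (RefSeq, GRCm38.p6), also met by Acly, Elovl1 and Srebf1, these exceeded 100 CPM in the most type 2 cells, 7 and 8 of 11 (chosen after their values were seen). Each window holds the 250 bases before the annotated start, written along the gene's own strand. Fasn is read from chr11:120824548-120824797 on the minus strand and Lpcat1 from chr13:73466981-73467230 on the plus strand. Capitals mark the letters CCAAT, the core of the box bound by NF-Y, and GGGCGG, the core of a GC box bound by Sp1, each on either strand. The sequence is that of the reference genome and not of this mouse.
Fasn: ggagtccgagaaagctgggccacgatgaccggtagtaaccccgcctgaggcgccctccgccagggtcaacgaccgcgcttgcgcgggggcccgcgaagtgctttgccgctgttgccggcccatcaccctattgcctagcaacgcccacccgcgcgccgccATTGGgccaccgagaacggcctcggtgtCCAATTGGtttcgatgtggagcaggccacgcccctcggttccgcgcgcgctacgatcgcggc
Lpcat1: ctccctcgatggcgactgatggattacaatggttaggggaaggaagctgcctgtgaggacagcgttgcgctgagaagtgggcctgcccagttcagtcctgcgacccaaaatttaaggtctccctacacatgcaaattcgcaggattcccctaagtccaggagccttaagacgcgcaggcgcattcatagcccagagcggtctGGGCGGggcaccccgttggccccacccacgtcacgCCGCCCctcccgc

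The Fasn window held CCAAT letters at 3 places, beginning 90, 62 and 59 bases before the start, of which the latter pair overlap on opposite strands, and no GGGCGG. The Lpcat1 window held GGGCGG letters 48 and 13 bases before its start and no CCAAT. Over all 32851 promoter windows of this length, 33.8% held CCAAT and 32.7% held GGGCGG on either strand. For 7 of the 9 genes the table has 12 windows, of which 4 held CCAAT (Elovl1, Fasn, Srebf1) and 6 held GGGCGG (Acly, Elovl1, Lpcat1, Srebf1). Neither the E-box CACGTG, present in 6.02% of all windows, nor TCACNCCAC, a form of the sterol regulatory element found in 1.05%, occurred in any of these 12 windows. A match is a match of letters only. Scd1 and Scd2 have no entry.

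Most of the lipid genes had a larger share of the reads in type 2 cells than in type 1 cells, and the exceptions were Scd2 and Acaca. Levels are CPM of the summed reads of a class. Ratios are log2 ratios of these CPM with 1 CPM added to each, which understates the change of low genes, and a ratio of at least 4-fold (2 log2 units) in either direction was called. Type 2 against type 1, 6 of 9 genes were called higher (Scd1, Fasn, Apoe, Srebf1, Acly and Lpcat1) and 0 lower. The median ratio of the 9 genes was 2.36. Among all 8975 genes with at least 10 CPM over the kept cells, 10.2% were called higher and 37.7% lower, with a median of -0.78. Type 2 against the remaining cells, 7 of 9 were higher and 1 (Apoe) lower, where the background was 9.54% higher and 39.7% lower with a median of -0.97. Type 1 against the remaining cells, Scd2 and Lpcat1 were higher and Apoe was lower, beside a background of 18.7% higher and 20.1% lower. Several of these calls rest on few cells: with the cell that held most reads of the gene left out of the higher class, 3 of 9 genes (Scd1, Fasn and Apoe) remained called higher against type 1 and 4 (Scd1, Lpcat1, Fasn and Scd2) against the remaining cells. This step was run on the 9 genes only, so its counts have no background.

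**Figure D1:**
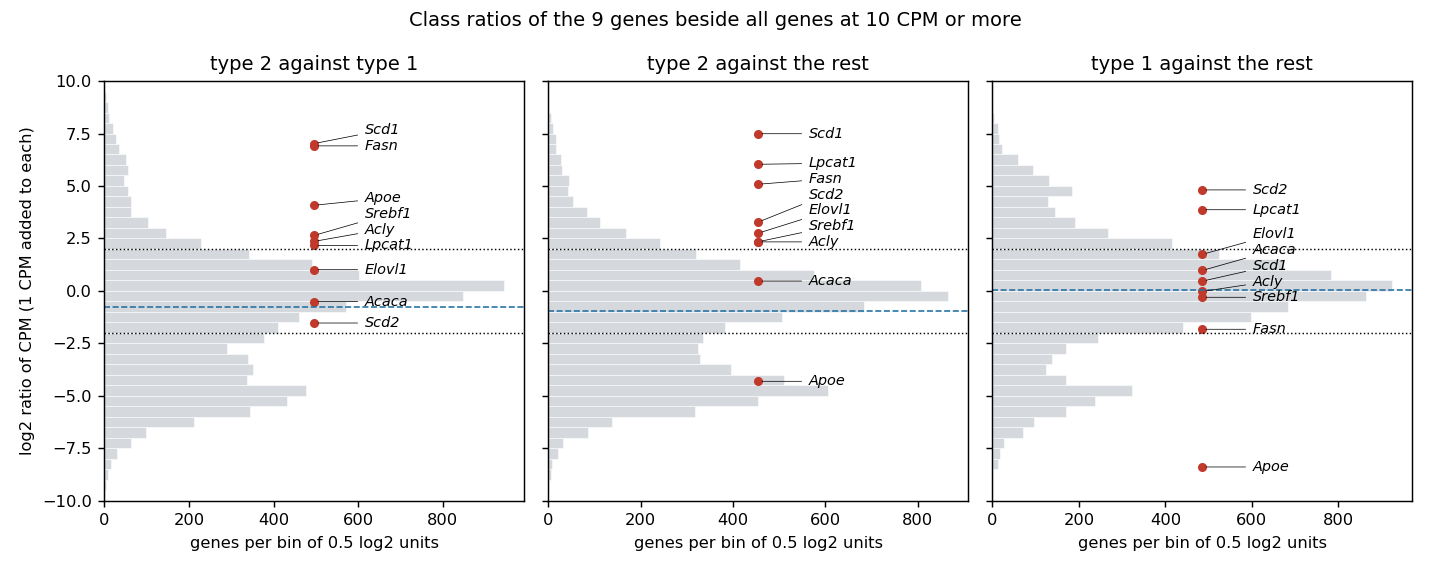
The log2 ratio of CPM (1 CPM added to each) on the vertical axis for 3 pairs of classes, with grey bars for the number of genes per bin among the 8975 genes at 10 CPM or more, red points for the 9 lipid genes, dotted lines at 4-fold and a dashed line at the median of all genes. Scd1 and Fasn lie at 7.02 and 6.91 in type 2 against type 1, while Scd2 lies at -1.53.

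Srebf1, the regulator, had 93.1 CPM in type 2 cells (95% counting interval 85.8 to 100.8), 14.01 in type 1 cells and 17.5 in the remaining cells. It was read in 6 of 11 type 2 cells, 7 of 45 type 1 cells and 8 of 36 remaining cells. Values per type 2 cell ran from 0 to 383 CPM with a median of 1.47. Cells in all 3 classes thus overlapped: 2 type 2 cells exceeded 100 CPM, and 1 type 1 cell had 382 CPM and held 73.5% of the type 1 reads. The log2 ratio was 2.65 against type 1 and 2.34 against the remaining cells, and it fell to 1.96 and 1.65 without the type 2 cell with most reads.

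Acly had 374 CPM in type 2 cells (359 to 389), 71.9 in type 1 cells and 73.2 in the remaining cells. Type 2 cells ranged from 0 to 1257 CPM with a median of 33.7, and 8 of 11 had a read, against 14 of 45 type 1 cells and 11 of 36 others. A single type 2 cell gave 56.1% of the Acly reads of the class. Without it the class had 197 CPM and the log2 ratio against type 1 fell from 2.36 to 1.44. High single cells were also found outside the type 2 class, up to 1351 CPM in type 1 and 868 CPM in the remaining cells, so the ranges overlapped. In the 16 type 2 cells removed for their mitochondrial share, the ratio against type 1 was 0.70.

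Acaca, the gene of the committed step, was low in every class and did not follow Fasn. It had 15.1 CPM in type 2 cells (12.3 to 18.4), 21.9 in type 1 cells (20.1 to 23.9) and 10.6 in the remaining cells (9.45 to 11.95). The type 2 median was 0.674 CPM and the highest type 2 cell had 101.2 CPM, below the 922 CPM of the highest type 1 cell. The log2 ratios were -0.51 and 0.47. Their sign changed with the cell of most reads left out, to 0.32 against type 1 and -0.96 against the remaining cells.

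Fasn separated the type 2 class far more. It had 1186 CPM in type 2 cells (1160 to 1213), 8.86 in type 1 cells (7.69 to 10.2) and 34.01 in the remaining cells (31.9 to 36.3). Type 2 cells ranged from 3.37 to 3784 CPM with a median of 918, and 7 of 11 exceeded 100 CPM. Only 1 of 45 type 1 cells did so, at 206 CPM, and 3 of 36 remaining cells, the highest at 684 CPM. The median was 0 in both other classes. The type 2 cells were themselves divided: 3 held 3.37 to 5.75 CPM, within the range of the type 1 cells, among them the cell that stood apart. The log2 ratio was 6.91 against type 1 and 5.08 against the remaining cells. Without the type 2 cell of most reads it was 6.45 and 4.62.

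Elovl1 differed between classes mainly through single cells. It had 704 CPM in type 2 cells, 349 in type 1 cells and 103.5 in the remaining cells. In type 2 cells the range was 0 to 8521 CPM with a median of 11.5, and 1 cell held 77.3% of the reads. Without that cell the type 2 class had 171 CPM, below the type 1 class, and the log2 ratio against type 1 went from 1.01 to -1.03. In type 1 cells 16 of 45 exceeded 100 CPM, with a highest value of 2677 and a median of 2.80. The Elovl1 values thus gave no order between type 2 and type 1 cells that outlasted the choice of cells.

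The 2 stearoyl-CoA desaturase genes went opposite ways between the alveolar classes. Scd1 had 6845 CPM in type 2 cells (6781 to 6909), 51.6 in type 1 cells (48.7 to 54.6) and 37.1 in the remaining cells (34.8 to 39.5). Type 2 cells ranged from 83.99 to 21318 CPM with a median of 4601. The lowest was the cell that stood apart, and the next was at 750 CPM. Type 1 cells ranged from 0 to 1225 CPM with a median of 7.53, and the remaining cells from 0 to 620 with a median of 2.77. Only 3 type 1 cells and 5 remaining cells exceeded 100 CPM, while 10 of 11 type 2 cells did so and 9 of the 11 lay above every other kept cell. The log2 ratio was 7.02 against type 1 (counting interval 6.93 to 7.12) and 7.49 against the remaining cells.

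Scd2 had 2039.9 CPM in type 1 cells (2022 to 2058), 706 in type 2 cells (686 to 727) and 71.7 in the remaining cells (68.5 to 74.9). It was read in all 45 type 1 cells, from 6.02 to 7805 CPM with a median of 1762, and 40 of them exceeded 100 CPM. Type 2 cells ranged from 2.89 to 1989 CPM with a median of 56.6, and 5 of 11 exceeded 100 CPM. The ranges overlapped, with 2 type 2 cells below every type 1 cell. The log2 ratio of type 2 against type 1 was -1.53 from summed reads, short of 4-fold, but -4.94 from the medians per cell. Type 1 cells had the higher level by 4.81 log2 units against the remaining cells, and type 2 cells by 3.28. Among the remaining cells Scd2 was found mostly in cells of the ciliated list, with 173 CPM over 12 cells and a read in 11 of them, against 2.01 CPM in the 6 basal-list cells.

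Together these values divided the classes by which desaturase gene was read. Scd1 gave 90.6% of the Scd1 and Scd2 reads in type 2 cells (Clopper-Pearson 95% interval 90.4 to 90.9), 2.47% in type 1 cells (2.33 to 2.61) and 34.1% in the remaining cells (32.4 to 35.8). Per cell, Scd1 exceeded 50% in 10 of 11 type 2 cells, with a median share of 95.1% and a lowest value of 27.4%. In type 1 cells Scd1 was below 50% in 43 of 45 cells, above in 1, and the median share was 0.782%. Without the type 2 cell that stood apart the share was 90.6%, as with it. Both genes lie on chromosome 19 of GRCm38, Scd2 at 44293674 to 44306864 on the plus strand and Scd1 at 44394455 to 44407879 on the minus strand. Their transcripts share sequence. The longest GENCODE transcripts (4832 and 5455 bases) align over 1261 bases with 86.8% identity, and their longest identical stretch is 147 bases. Reads from that stretch cannot be assigned to either gene, and the strand setting of the read counting is not given in the sources used here.

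**Figure D2:**
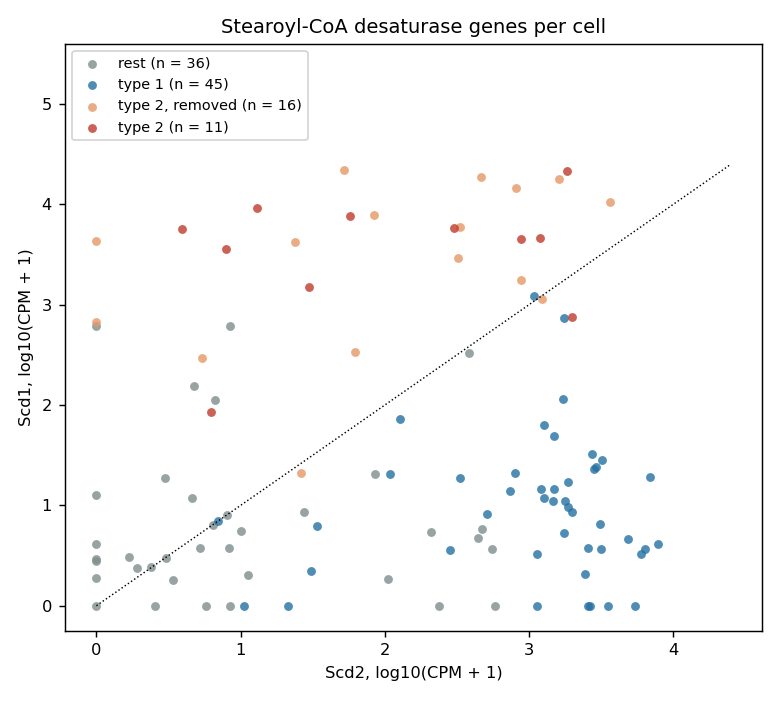
Scd1 against Scd2 in single cells, both as log10(CPM + 1), for type 2, type 1 and remaining cells and for the type 2 cells above the mitochondrial limit. The dotted line marks equal values. Of the 11 type 2 cells 10 lie above the line, and 43 of 45 type 1 cells lie below it.

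Lpcat1 was read at 1145 CPM in type 2 cells (1119 to 1171), 254 in type 1 cells (248 to 261) and 16.5 in the remaining cells (14.99 to 18.1). Type 2 cells ranged from 0 to 2460 CPM with a median of 870, and 8 of 11 exceeded 100 CPM. In type 1 cells the median was 4.02 CPM, but 14 of 45 exceeded 100 CPM and the highest had 5769. Type 1 cells therefore spanned the whole type 2 range. Only 1 of 36 remaining cells exceeded 100 CPM. The log2 ratio was 2.17 for type 2 against type 1, 6.03 for type 2 against the remaining cells and 3.87 for type 1 against the remaining cells. The first of these was just past 4-fold and became 1.96 without the type 2 cell of most reads.

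Apoe, the lipid carrier, was highest outside the alveolar classes. It had 1581 CPM in the remaining cells (1566 to 1596), 78.9 in type 2 cells (72.2 to 86.04) and 3.72 in type 1 cells (2.97 to 4.59). Type 2 cells ranged from 0 to 372 CPM with a median of 8.68, type 1 cells from 0 to 33.1 with a median of 0, and the remaining cells from 0 to 10120 with a median of 2.37. The class sum and the median gave opposite orders for type 2 and the remaining cells, with ratios of -4.31 and 1.52, since 13 of 36 remaining cells exceeded 100 CPM and 15 had no read. Against type 1 cells the type 2 ratio was 4.08, but 0.17 with the 16 removed type 2 cells in place of the 11 kept. All 6 basal-list cells carried Apoe, at 2394 to 8978 CPM, whereas the 7 club-list cells had 8.94 CPM together and 12 ciliated-list cells had 194, with 1 of them above 100 CPM, at 1196. Of the 10 cells with most Apoe, 6 were the basal-list cells. The other 4 passed no list and had 2 or 3 of 8 basal markers above 100 CPM. Among them were the cell with most Apoe, with 11.8 CPM of the basal marker Krt5, and a cell with 41995 CPM of Scgb1a1. Of these 10 cells, 9 also had 516 to 6386 CPM of Dcn, a proteoglycan gene on the fibroblast list, while Col3a1 had no read in any of them. The part of other cell types in these reads was not tested. Ptprc, which marks leukocytes including macrophages, a known source of Apoe, was at 0 in all 10 cells. It was also at 0 in every other kept cell, after a sort against CD45, so it cannot tell these cells apart. The other 2 macrophage-list genes with a row had reads in the remaining class, where no cell passed that list. A macrophage source of Apoe was not tested.

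**Figure D3:**
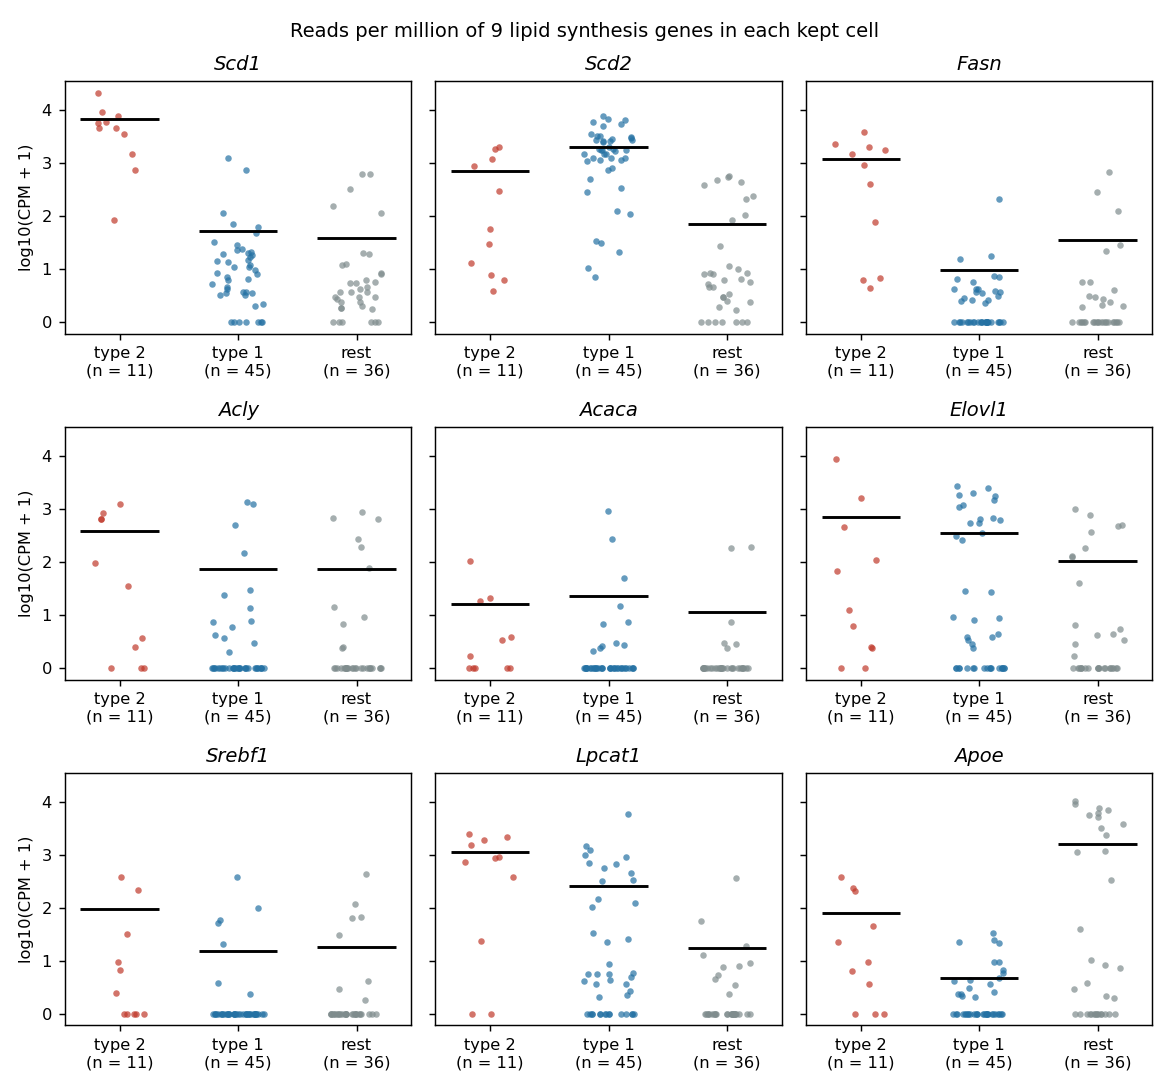
Levels of the 9 genes in each kept cell as log10(CPM + 1), by class (11 type 2, 45 type 1 and 36 remaining cells). Points are cells and black lines are the CPM of the summed reads. Scd1 and Fasn are high in most type 2 cells, Scd2 in most type 1 cells and Apoe in 13 remaining cells.

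The share of cells with at least 1 read gave the same picture with less contrast. In type 2 cells Scd1, Scd2 and Fasn were each read in 11 of 11 cells. Scd1 was also read in 38 of 45 type 1 cells (84.4%, Clopper-Pearson 70.5 to 93.5) and 30 of 36 remaining cells (83.3%, 67.2 to 93.6). After every cell was thinned to 90000 reads, Scd1 was read in 11 of 11 type 2 cells, 18 of 45 type 1 cells (40%) and 14 of 36 remaining cells (38.9%). Fasn was then read in 9, 5 and 6 cells of the 3 classes. Scd2 was read in 8 of 11 type 2 cells and 44 of 45 type 1 cells. All deposited cells had more than 90000 reads, so none was left out.

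Low levels of Scd1 in type 1 cells ran with Sftpc, which itself was read in all 45 type 1 cells. Over the 45 type 1 cells the Spearman rho of Scd1 with Sftpc was 0.71, against -0.17 for Scd2 and 0.05 for Lpcat1. These cells share 1 chip and 1 pooled library. Chip columns that also held a cell above the Sftpc limit, kept or removed, had 33 type 1 cells. Their median was 10.1 CPM of Scd1 and 199 CPM of Sftpc, and that of the 12 in other columns 2.90 and 43.8. The summed Scd1 level went the other way, 31.3 CPM in the former columns and 94.9 in the latter. That order rests on single cells. Most Scd1 reads of the latter columns came from the cell in column 4 and row 6 (729 CPM). The former columns held the cell in column 6 and row 8 (1225 CPM). If type 1 cells carried type 2 RNA in the proportion of the type 2 class, their 5848 Sftpc reads would bring 239 Scd1 reads, and 1194 were counted, 5.0 times as many (4.72 to 5.29). Without the 3 type 1 cells above 100 CPM, 219 Scd1 reads were counted where 173 would be brought, 1.27 times as many (1.11 to 1.45). The same figure for Fasn without its 1 cell above 100 CPM was 0.993 (0.713 to 1.35). In the remaining cells Scd1 was read 1.11 times as often as their Sftpc reads would bring, and 0.114 times without the 5 cells above 100 CPM. Both figures rest on 1 cell, in column 1 and row 27, which held most Sftpc reads of this class. It lay just under the Sftpc limit at 7774 CPM and had 1.38 CPM of Scd1. The reads of Scd2, Elovl1, Acly, Acaca, Srebf1, Lpcat1 and Apoe in type 1 cells were 31.2 to 1915 times those that Sftpc would bring. These figures rested largely on the cells above 100 CPM. Without those cells the figure was 1.70 for Elovl1 (16 cells left out), 2.12 for Lpcat1 (14), 3.03 for Acly (4), 27.4 for Srebf1 (1), 66.1 for Scd2 (40) and 108.4 for Acaca (2), and Apoe, with 0 such cells, stayed at 31.2. Cells were left out by the level of the gene measured, which lowers its figure whatever the source of the reads. A figure near 1 therefore cannot tell where the low reads came from. For Scd2 only 5 of 45 type 1 cells were left. All these figures are ratios of reads, and whether RNA was carried over was not tested.

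Within the type 2 class the levels of the lipid genes varied widely from cell to cell. The number of the 9 genes above 100 CPM ran from 0 to 7 per cell with a median of 4. The cell in column 6 and row 30 had the most, with 21318 CPM of Scd1, 1840 of Scd2, 918 of Fasn, 842 of Acly, 455 of Elovl1, 383 of Srebf1 and 1903 of Lpcat1. The cell in column 7 and row 36, with the highest Sftpc of the class, had 3583 CPM of Scd1 and 1486 of Fasn but no read of Acly, Acaca, Elovl1, Srebf1 or Lpcat1. High Fasn and high Acly met in 3 cells (column 6 and rows 30 and 32, and column 15 and row 16), while the cell with the most Fasn (3784 CPM, column 13 and row 35) had no Acly read.

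Over the 11 type 2 cells, 3 of the 36 pairs of lipid genes had a Spearman rho of at least 0.6, namely Acly with Elovl1 (0.77), Scd1 with Lpcat1 (0.73) and Acly with Acaca (0.61). Their Pearson r was 0.62, 0.70 and 0.13 in this order. The median rho was 0.23 and 30 of 36 pairs were positive. The share of positive pairs among all pairs of genes was not computed. Among 1838403 pairs of genes with reads in at least 6 of the 11 cells, 3.78% had a rho of at least 0.6, and the median was 0.03. The pairs share cells and genes, and the cells share a library. Among other pairs of the synthesis pathway, Fasn had a rho of 0.01 with Acly and -0.14 with Acaca, Srebf1 had -0.34 with Fasn and 0.02 with Scd1, and Scd1 with Fasn gave 0.41. Scd1 also had a rho of 0.59 with the total reads of the cell and Lpcat1 0.51, so depth moves with this pair. The count of pairs at 0.6 or more was also 3 with total reads regressed out and with cells thinned to 90000 reads. The median rho was then 0.17 and 0.16. Without the cell that stood apart the rho of Scd1 with Lpcat1 was 0.66, 2 pairs reached 0.6 and the median rho was 0.15. Leaving out each of the 11 cells in turn gave 2 to 5 pairs. The rho of Acly with Acaca then ran from 0.53 to 0.87 and was under 0.6 in most of these runs.

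The 16 cells above the Sftpc limit that were removed for a mitochondrial share of 15.6% to 36.9% offered the same measure in cells not used above. There 30 of 36 pairs were again positive, with a median rho of 0.17. The median was 0.07 over all pairs of genes with reads in enough of those cells, a set that holds 5 of the 9 lipid genes. Over all 27 cells 33 pairs were positive with a median of 0.19, and no background was computed. The 3 pairs named above had rho values of -0.13, 0.01 and -0.10 in the removed cells. Only Fasn with Acly reached 0.6 (0.71). Among pairs of genes with reads in enough of those cells, 2.02% did so. That set holds 5 of the 9 lipid genes and not Acly, which was read in 6 of the 16 cells, so it is no background for this pair. Over all 27 cells no pair reached 0.6, and the highest was Scd2 with Srebf1 at 0.53, which was 0.53 in the kept and 0.47 in the removed cells. No pair reached 0.6 in the type 1 class, in the remaining cells or over all 92 kept cells, where the highest was Scd1 with Fasn at 0.36. In 11 cells with many values at 0, none of these correlations is given as more than a description.

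**Figure D4:**
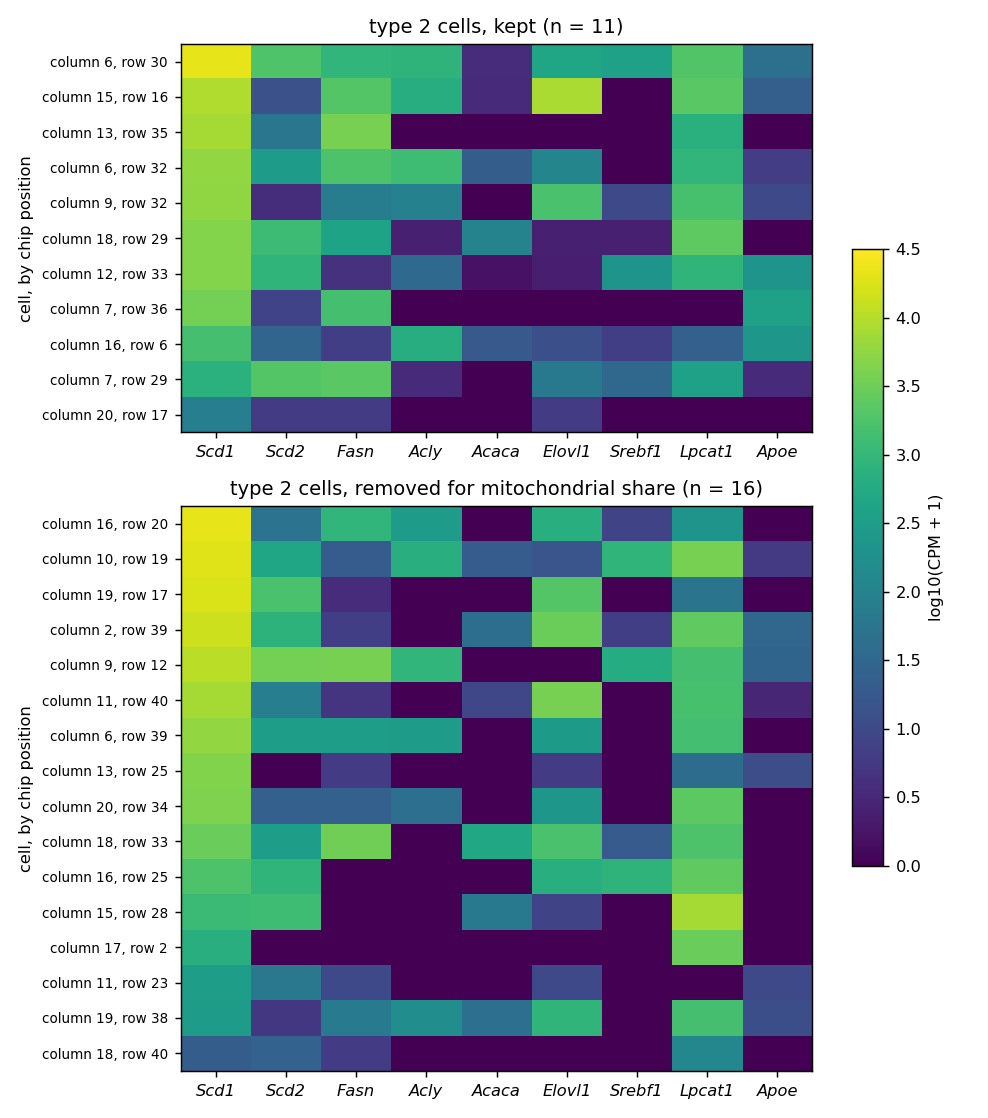
Colour gives log10(CPM + 1) of the 9 genes (columns) in the 11 kept type 2 cells (upper panel) and the 16 removed for their mitochondrial share (lower panel), rows ordered by Scd1 and named by chip position. Scd1 is the gene most evenly high in both panels, and dark fields for Acly, Acaca and Srebf1 mark cells without a read.

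Genes outside the list were compared with the mean log2(CPM + 10) of Fasn, Acly, Acaca, Scd1 and Lpcat1 over the 92 kept cells. Of 5161 genes read in at least 20% of these cells, the 5 with the highest Spearman rho were Sftpb (0.56), Dram1 (0.56), Sftpa1 (0.47), Sftpc (0.46) and Sftpd (0.45). Apart from Dram1, which encodes a lysosomal membrane protein, these are surfactant protein genes, and the type 2 class was cut on Sftpc itself. Within the 11 type 2 cells the rho was 0.61 for Sftpa1, 0.34 for Sftpb, 0.25 for Dram1 and -0.18 for Sftpd.

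The wider lipid pathways were spread over both directions in type 2 cells. Of 157 genes in 8 lists of lipid metabolism that hold none of the lipid genes above, 100 had at least 10 CPM over the kept cells. Type 2 against type 1, 20 of them (20%) were at least 4-fold higher and 36 (36%) at least 4-fold lower, beside 10.2% and 37.7% of all genes, with a median of -0.20 against -0.78 for all genes (-0.82 with genes at 0 reads set to a floor of 3 counts). Against the remaining cells 19 were higher and 33 lower, beside 9.54% and 39.7% of all genes. Type 1 against the remaining cells, 21 were higher and 21 lower, beside 18.7% and 20.1%. The counts per list below are for type 2 against type 1, where all genes gave 10.2% and 37.7%. Genes named next are the 2 highest and the lowest of each list by this ratio, and many rest on 1 cell. Fold bounds and fold intervals below cover counting error only and not the spread between cells.

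In the list of fatty acid synthesis and desaturation, 5 of 18 genes were higher and 4 lower, with a median of 0.03 (0.03 also with the floor). Fads1, a desaturase of polyunsaturated chains, had 78.7 CPM in type 2 and 0.303 in type 1 cells, a ratio of 5.94. Mid1ip1, whose product activates acetyl-CoA carboxylase, had 357 and 6.23 CPM, a ratio of 5.63. Both were read in few type 2 cells, 3 and 6 of 11. Mcat, of mitochondrial fatty acid synthesis, had no read in type 2 cells and was at least 64.9-fold lower than in type 1 cells, where 1 cell held 99.9% of its reads.

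In the list of SREBP and lipid transcription control, 2 of 9 genes were higher and 6 lower, with a median of -2.90 (-3.12 with the floor). Cebpa, a transcription factor of AT2 cells, was read in 8 of 11 type 2 cells at 56.8 CPM against 0.303 in type 1 cells, a ratio of 5.47. Srebf2, the sterol-regulated relative of Srebf1, had 103.9 and 2.42 CPM, a ratio of 4.94. Mlx, a partner of the carbohydrate response factor, had no read in type 2 cells and was at least 192-fold lower than in type 1 cells, where 82.2% of its reads came from 1 cell. In the list of cholesterol synthesis 3 of 13 were higher and 5 lower (median -0.56, or -0.04 with the floor). Pmvk, a mevalonate pathway kinase, had a ratio of 2.84 (105.3 and 13.8 CPM). Ebp, a sterol isomerase, had the lowest ratio of this list at -5.55, with 2.01 CPM against 139.9.

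The list of glycerophospholipid synthesis and remodelling held 2 of 18 genes higher and 9 lower, with a median of -2.03 (-2.12 with the floor). Pcyt2, of the phosphatidylethanolamine branch, had a ratio of 3.11 (118.1 and 12.8 CPM) and Agpat1, which makes phosphatidic acid, 2.81 (41.4 and 5.06 CPM). Agpat4, a relative of Agpat1, had 2 reads in 1 type 2 cell against 161 CPM in type 1 cells, 520-fold lower by these counts with an interval of 144 to 4297.

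Lipid uptake and transport was the list with the largest ratios, 5 of 14 higher and 5 lower (median -0.78, or -0.10 with the floor). Slc34a2, which carries phosphate and not lipid and is a known AT2 gene, was read in 11 of 11 type 2 cells at 1431 CPM against 4.496 in type 1 cells, a ratio of 8.03. Fabp5, a fatty acid binding protein, had 265 and 0.519 CPM, a ratio of 7.45, and was read in 8 of 11 type 2 cells. Cd36, a fatty acid transporter, and Npc2, a cholesterol carrier of the lysosome, were read in 11 of 11 type 2 cells with ratios of 6.08 and 4.46 (both named after their values were seen). Lipa, lysosomal acid lipase, had no read in type 2 cells and was at least 171-fold lower than in type 1 cells. Only 11 of 45 type 1 cells had a read of Lipa.

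Of the 15 genes of fatty acid oxidation, 0 were called higher and 5 lower, beside 10.2% and 37.7% of all genes (median -1.08, or -1.26 with the floor). Etfb and Echs1, of electron transfer and of the hydration step, had the highest ratios at 0.74 and 0.67. Eci2, an enoyl-CoA isomerase, had no read in type 2 cells and was at least 151-fold lower than in type 1 cells. Only 7 of 45 type 1 cells had a read of Eci2, and 1 cell held 52.5% of these reads. In the list of lipid droplets and triglyceride 2 of 10 were higher and 2 lower (median 0.48, or 1.32 with the floor). Soat1, which esterifies cholesterol, had a ratio of 4.85 and Abhd5, an activator of triglyceride lipase, 3.75, but 1 cell held 62.8% and 87.8% of their type 2 reads. Mgll, monoglyceride lipase, had 2 reads in type 2 cells against 179 CPM over type 1 cells, 580-fold lower by these counts (interval 160 to 4788). Of the 3 genes compared from a list of apolipoproteins and related genes without Apoe, Apoc1 had a ratio of 3.77, Pltp 1.62 and Clu 1.35. For Apoc1, 1 cell held 99.01% of the type 2 reads. Like Apoe, Apoc1 and Pltp had most CPM in the remaining cells, at 71.2 and 305.5.

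**Figure D5:**
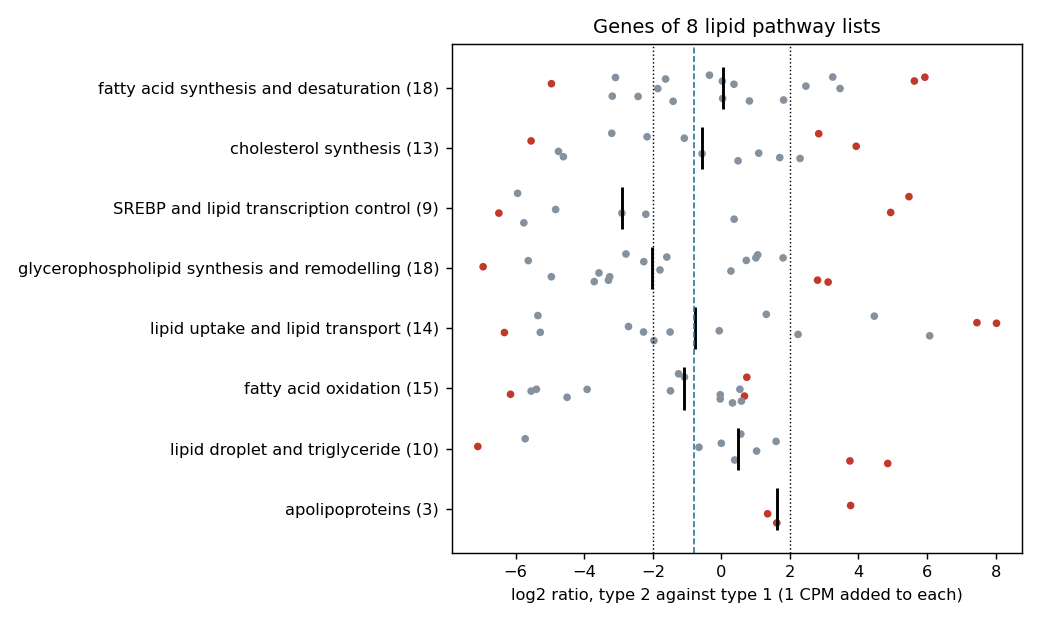
The log2 ratio of type 2 against type 1 cells (1 CPM added to each) for the 100 genes of 8 lipid lists at 10 CPM or more, with the number of genes per list in brackets, red points for the genes named by rule, black bars for list medians, dotted lines at 4-fold and a dashed line at the median of all genes (-0.78). Ratios in most lists spread over both sides, with 20 genes at least 4-fold higher and 36 at least 4-fold lower, beside 10.2% and 37.7% of all genes.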

How the data were processed

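Single-cell RNA-seq of 141 sorted cells of 1 mouse was analysed. The authors used Trim Galore and FastQC for quality control, HISAT2 for mapping to GRCm38 and featureCounts for quantification, and deposited counts of whole reads per gene and cell that are not normalized. No molecular identifiers are stated, so counts include PCR copies and intervals cover counting error only. Versions are not given in the sources used here. Symbols were matched to GENCODE M21 (16112 of 17136).

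From the deposited counts, CPM were computed per cell and on the summed reads of each class with Python 3.11.15, pandas 2.3.3 and scipy 1.17.1. Intervals are 95% exact Poisson (CPM) and Clopper-Pearson (shares); the bounds of a log2 ratio combine the far ends of both CPM intervals, and fold intervals are conditional binomial. Correlations used log2(CPM + 10). Genes with at least 10 CPM over kept cells were compared (8975). A gene with 0 reads is compatible with up to 3 counts. No p-value was computed, since 1 mouse gives 1 sample. Alternatives changed the mitochondrial, Ager and Sftpc limits, library size, averaging, pseudocount, chip columns and cells left out. Transcripts were aligned with blastn 2.17.0. The calculations were tested on simulated data.

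The lipid genes, the lists and the limits were chosen with earlier results of these data known. Besides the 9 genes, the text names the 2 genes of highest and the 1 of lowest ratio per list and the 5 genes most like the synthesis genes; exceptions are stated, and 1 gene of this rule is not reported here. Doublets were not called by software.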

Additional observations from a re-analysis of the deposited data

Results flagged for a closer look

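Data outside the comparisons held signal for all 9 genes. In the 16 cells above the Sftpc limit that were removed for their mitochondrial share, the levels were 6968 CPM for Scd1, 435 for Scd2, 521 for Fasn, 117.8 for Acly, 59.3 for Acaca, 1087 for Elovl1, 92.1 for Srebf1, 1645 for Lpcat1 and 4.32 for Apoe, each above what a count of 0 allows. Scd1 was read in 16 of 16 of these cells and Lpcat1 in 15, with medians of 4272 and 1510 CPM, and Scd1 gave 94.1% of the Scd1 and Scd2 reads. Fasn had a median of 7.38 CPM there against 918 in the kept type 2 cells, with 4 of 16 against 7 of 11 cells above 100 CPM. Apoe did not exceed 29.7 CPM in any of the 16, while 3 of 11 kept type 2 cells exceeded 100 CPM. One of the 16 cells held 8718 CPM of Sftpc with 4696 CPM of Ager, close to both limits. These cells held fewer reads (median 244845 against 413806), and the part of depth and of mitochondrial share in the differences was not tested.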

How the results depend on the processing

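There was no replicate, so the alternatives show only how a value moves with the choices made. No paired analysis was possible because all cells come from 1 mouse and no result comes from a test. Scd1 and Fasn stayed at least 4-fold higher in type 2 cells in all 17 alternatives of both comparisons, with log2 ratios of 6.51 to 9.08 and 3.75 to 9.84 against type 1 and of 6.74 to 10.25 and 3.90 to 9.84 against the remaining cells, and Lpcat1 (5.44 to 9.77) and Scd2 (2.56 to 3.93) did so against the remaining cells. An Ager limit of 2500 CPM and an Sftpc limit of 16000 CPM moved no kept cell to another class, so these alternatives could not change a value. With the cell of most reads left out of the higher class, the count of genes called higher fell from 6 to 3 against type 1 and from 7 to 4 against the remaining cells. That step was run on the 9 genes only. The share of all genes called was not computed for any alternative, so counts under the alternatives have no background. Against type 1 the count of genes called lower went from 0 to 1 (Scd2) with an Sftpc limit of 4000 CPM, with the median of CPM per cell, and with the removed type 2 cells in place of the kept ones, an alternative chosen after seeing the data. The count called higher against type 1 was 4, 5 and 4 under these (Acly at 1.85 and Lpcat1 at 1.66 with the limit of 4000 CPM), and 5 against the remaining cells with that limit. With the median per cell the count called lower against the remaining cells went from 1 to 0, because Apoe turned to 1.52. With the removed type 2 cells Apoe against type 1 fell from 4.08 to 0.17 and Acly from 2.36 to 0.70. Acaca and Elovl1 against type 1 changed sign between alternatives, over -1.16 to 3.94 and -1.68 to 1.72. A library size without mitochondrial, Sftpc and Ager reads moved the median of all genes from -0.78 to -0.57 against type 1 and from -0.97 to -0.68 against the remaining cells, and the counts of called genes stayed within 1.5 times. The count of gene pairs with a rho of at least 0.6 in type 2 cells went from 3 to 0 with the removed cells added and to 1 with the removed cells alone, and was 2 to 5 with each cell left out in turn. The counts over the lipid lists (20 higher and 36 lower) were 20 to 27 and 34 to 40 over all alternatives. Acaca, Srebf1, Apoe and Elovl1 had type 2 medians of 0.674 to 11.5 CPM, a few reads per cell, so their ratios rest on the cells with more reads.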
